A study of Mus musculus with 11 samples.

Results

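Respiratory complex I (NADH:ubiquinone oxidoreductase) is represented here by the genes whose symbols start with Nduf, which encode its nuclear subunits and several of its assembly factors. Of the 24914 rows in each deposited table, 40 carried such a name, and all 40 passed the filter on low counts. They comprise 5 core subunits of the matrix arm, 8 accessory subunits of the matrix arm, 8 accessory subunits of the proximal membrane arm, 11 accessory subunits of the distal membrane arm, 6 assembly factors, and Ndufa4 with its paralogue Ndufa4l2. The subunits encoded by mitochondrial DNA were not analysed here.

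The libraries were made from mRNA of kidneys of 129X1/SvJ mice aged 5.5 weeks. Of 3 groups, KO antimiR-21 holds 4 libraries of Col4a3-/- mice treated with antimiR-21. KO PBS holds 4 libraries of Col4a3-/- mice that received PBS, and HET PBS holds 3 libraries of Col4a3+/- mice that also received PBS. Mice that lack Col4a3, a chain of the type IV collagen of the glomerular basement membrane, are a model of Alport syndrome, and antimiR-21 is an inhibitor of the microRNA miR-21. The controls carry 1 intact Col4a3 allele rather than both, and no Col4a3+/- mice given antimiR-21 were analysed here. The labels do not say whether the libraries of a group came from separate mice, so p-values measure the spread between these libraries.

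Complex I takes electrons from NADH in the mitochondrial matrix, passes them through a flavin and a chain of iron-sulphur clusters to ubiquinone, and pumps protons across the inner membrane. Its matrix arm holds the NADH-binding and ubiquinone-reducing parts, its membrane arm holds the pumping subunits, and assembly factors help to build both without staying in the finished enzyme. Kidney tubules, the proximal tubule among them, are dense in mitochondria and reabsorb solutes with ATP from oxidative phosphorylation.

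The deposited counts summed to between 22.4 M and 49.7 M in a library. Col4a3 and its neighbour Col4a4 had identical counts in every library, so their reads cannot be told apart; the joint locus stood at 515, 569, 809 and 665 CPM (counts scaled to library size) in KO antimiR-21 replicates 1 to 4, at 743, 607, 953 and 997 CPM in KO PBS and at 870, 1053 and 1271 CPM in HET PBS, which does not check the knockout label. The labels give no sex, yet 5 libraries held reads of the Y-linked gene Ddx3y at 89.7 to 109 CPM and 6 held at most 0.172 CPM. Those with Y-linked reads were KO antimiR-21 replicate 4, KO PBS replicates 3 and 4, and HET PBS replicates 2 and 3, so Y-linked status was unevenly spread over the groups. The kidney label was matched by 16 detected proximal tubule markers that together held 17635 to 22764 CPM in the knockout libraries and 21682 to 27020 CPM in HET PBS. The markers of tubular injury summed to 2317 to 3034 CPM in KO antimiR-21, 1705 to 7375 CPM in KO PBS and 906 to 2271 CPM in HET PBS.

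The 40 members ranged widely in abundance. CPM per kilobase of transcript (1 principal transcript per gene, one linked to RefSeq where there was one, GENCODE vM21) allow genes to be compared, and they can be given for the 31 members whose counts were their own. Ndufb8, an accessory subunit of the distal membrane arm, was highest at 526.5 CPM per kb, followed by Ndufb9 at 360 CPM per kb, also of the distal arm. The lowest 3 were Ndufaf4, an assembly factor, at 15.4 CPM per kb, Ndufb4 of the distal arm at 16.4 CPM per kb, and Ndufab1, the mitochondrial acyl carrier protein, at 17.7 CPM per kb.

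By role, the median level per length was 223 CPM per kb for the 5 core subunits, 168 CPM per kb for 9 distal, 148 CPM per kb for 7 proximal and 119 CPM per kb for 6 matrix-arm accessory subunits. The 4 assembly factors counted alone had a median of 22.2 CPM per kb and a highest value of 26.3 CPM per kb, below every core subunit, of which the lowest, Ndufv2, reached 134 CPM per kb. Some of these levels are uncertain. The Ndufaf4 and Ndufab1 transcripts are annotated at 3632 and 3479 bases, mostly 3' UTR, and a shorter transcript in use would raise the value per length. Of the 50-base windows of each transcript, 41.2% of those of Ndufs5, 37.0% of Ndufb4, 23.4% of Ndufb9, 13.5% of Ndufb8 and 12.3% of Ndufab1 also occur in another annotated gene. Ndufs5, the proximal-arm subunit with the largest such share, stood at 20.1 CPM per kb. Its near copy BC002163 had a mean of 17.7 CPM, against 10.6 CPM for Ndufs5 itself, and the share of reads counted for each of the pair is uncertain.

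**Figure D1:**
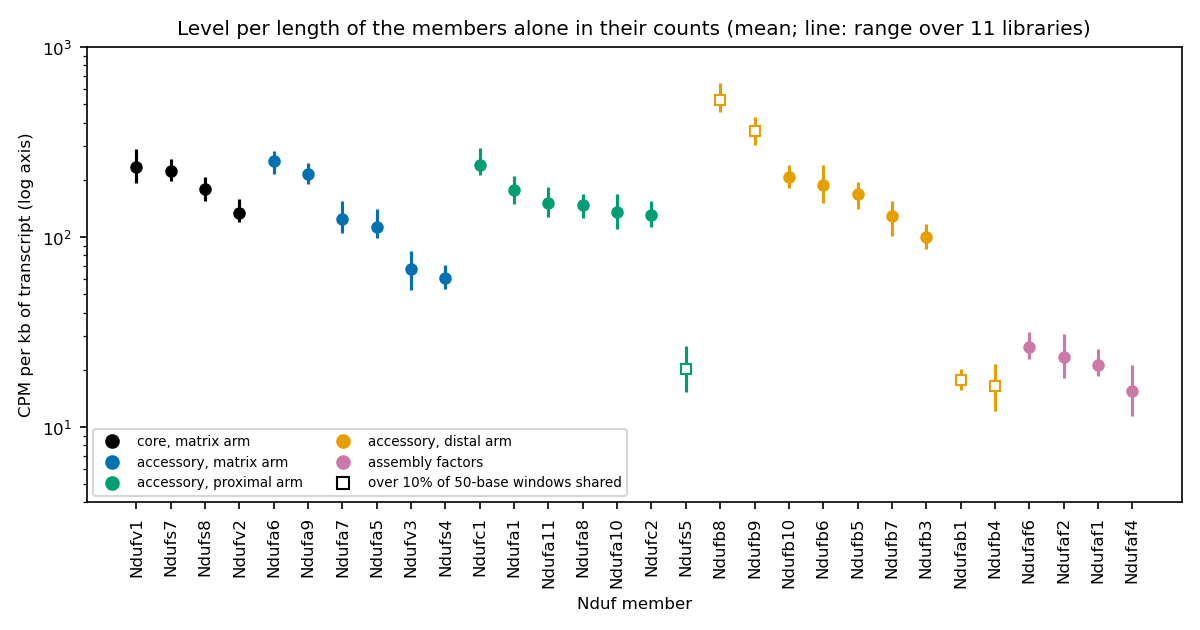
Mean CPM per kb of transcript (log axis) for 30 of the 31 members with counts of their own, in order of role and level, with a line for the range over the 11 libraries; open squares mark members with over 10% of their 50-base windows shared with another gene. The 4 assembly factors lie between 15.4 and 26.3 CPM per kb and the core subunits shown at 134 CPM per kb and above.

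The other 9 members had counts identical in all 11 libraries to those of a neighbouring gene on the opposite strand, and the reads of such a pair cannot be assigned to either gene. These joint loci are Ndufa13/Tssk6, Ndufa2/Tmco6, Ndufa4/Phf14, Ndufa4l2/Shmt2, Ndufaf5/Esf1, Ndufaf7/Prkd3, Ndufb11/Rbm10, Ndufb2/Braf and Ndufs6/Mrpl36. A value for one of them may belong wholly to the partner, for example to Prkd3, a protein kinase, or to Shmt2, the mitochondrial serine hydroxymethyltransferase.

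In kidneys of KO PBS mice, none of the 40 members differed from HET PBS past the threshold (edgeR quasi-likelihood test, Benjamini-Hochberg adjusted p under 0.05), as was so for all 14380 loci tested (0.0%). The point estimates were nevertheless nearly all below 0: 39 of 40 log2 differences were negative, with a median of -0.09 against -0.02 over all loci, of which 53.5% were negative. DESeq2 and limma-voom also called 0 members. At an unadjusted p under 0.05, 1 member passed with each of the 3 tools, against 6.94% of all loci in edgeR, where the member was Ndufaf4. The 95% interval of a member's log2 difference had a median half-width of 0.27 (0.17 to 0.49 over the members), and the interval of Ndufaf4 did not reach 0. Single libraries moved the median: it was -0.04 without KO PBS replicate 1, -0.03 without HET PBS replicate 2 or 3, -0.14 without KO PBS replicate 2 and -0.15 without HET PBS replicate 1. The count of negative differences was 30 of 40 without HET PBS replicate 2 and 29 of 40 without HET PBS replicate 3. At an unadjusted p under 0.05 in edgeR, 4 members were lower without HET PBS replicate 1 (764 of 14696 loci were lower), 2 without KO PBS replicate 3 (480 of 14290 loci) and 0 without HET PBS replicate 2 (119 of 14739 loci).

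Ndufaf4 (GRCm38 chr4:24898083-24905001, plus strand), which acts early in the assembly of the matrix arm, was measured at 41.7, 49.1, 54.2 and 49.9 CPM in KO PBS replicates 1 to 4 and at 54.7, 77.0 and 65.4 CPM in HET PBS replicates 1 to 3. Every KO PBS library lay below every HET PBS library, although the highest KO PBS and the lowest HET PBS value nearly met. The means were 48.7 ± 5.199 CPM in KO PBS (SD, n = 4) and 65.7 ± 11.2 CPM in HET PBS (SD, n = 3). The log2 difference was -0.43 (SE 0.14), with an edgeR adjusted p of 0.554. It was 1 of 40 members whose groups did not overlap, and over all loci 6.76% did not overlap. Without HET PBS replicate 2 the log2 difference was -0.28.

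The core subunits of the matrix arm, the part that carries the redox centres, had 5 of 5 negative differences among those with a row, from -0.16 to -0.06. Ndufv1 (chr19:4007384-4012806, minus strand), which binds NADH and the flavin, had the core subunit estimate farthest below 0. It stood at 320.3, 399, 412 and 385 CPM in KO PBS and at 358, 464 and 452 CPM in HET PBS. The groups overlapped, and 3 of the 4 KO PBS libraries lay above the lowest HET PBS library; the log2 difference was -0.16 (SE 0.15, edgeR adjusted p = 0.852). For Ndufs7, which carries the terminal iron-sulphur cluster, the log2 difference was -0.08 (SE 0.11). Ndufs8 and Ndufv2, which also carry iron-sulphur clusters, had log2 differences of -0.06 (SE 0.11) and -0.11 (SE 0.12).

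Accessory subunits surround this core. In the proximal membrane arm 8 of 8 log2 differences were negative, with a median of -0.09, and Ndufa10 (chr1:92439010-92473860, minus strand) had the smallest p among them. It stood at 224, 301, 270 and 257 CPM in KO PBS and at 264, 326 and 339 CPM in HET PBS. The ranges overlapped, since 2 KO PBS libraries exceeded the lowest HET PBS library, and the log2 difference was -0.23 (SE 0.14, edgeR adjusted p = 0.784). All 8 matrix-arm and all 11 distal-arm accessory subunits had negative log2 differences too, with medians of -0.05 and -0.08, and Ndufb8 lay closest to 0 at -0.0015. Among the 6 assembly factors 5 were negative. The exception was the joint locus Ndufaf5/Esf1, with a log2 difference of 0.04 (SE 0.08) that turned to -0.01 without HET PBS replicate 1. Ndufaf5 hydroxylates an arginine of Ndufs7. Ndufa4, which is now placed with complex IV, and Ndufa4l2, its hypoxia-inducible paralogue, were measured only as joint loci, with log2 differences of -0.13 (SE 0.15) for Ndufa4/Phf14 and -0.30 (SE 0.17) for Ndufa4l2/Shmt2.

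The direction differed between libraries with and without Y-linked reads. Among libraries with Y-linked reads (2 KO PBS, 2 HET PBS) the median log2 difference of the members was -0.20 and 40 of 40 were negative. Among those without (2 KO PBS, 1 HET PBS) it was 0.08 and 34 of 40 were positive, values that rest on HET PBS replicate 1 alone for the controls. With Y-linked status as a term, the median was -0.06 and 35 of 40 were negative. In that fit Ndufaf4 had a log2 difference of -0.38 (edgeR adjusted p = 0.223, the lowest over its alternatives, whose highest was 1.0 without HET PBS replicate 2). In bulk kidney RNA, fewer cells of a type and less RNA per cell cannot be told apart. None of the proximal tubule markers was called in this comparison (5 of 16 at an unadjusted p under 0.05 in edgeR), but 16 of 16 had negative log2 differences, with a median of -0.27.

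Marker lists of other cells and states varied in KO PBS against HET PBS, with 0 loci called in each. Median log2 differences were 0.06 for thick ascending limb, -0.06 for collecting duct and -0.06 for endothelium markers. They were -0.12 for distal convoluted tubule, 0.17 for lymphocyte and 0.18 for podocyte markers. Several lists had medians farther from 0. The 7 markers of tubular injury had a median log2 difference of 1.41 (7 of 7 positive, 6 at an unadjusted p under 0.05). The 7 fibroblast and myofibroblast markers had a median of 0.80 (7 of 7 positive, 6 at that p) and summed to 696 to 1352 CPM in KO PBS and 418 to 622 CPM in HET PBS. The 7 macrophage markers had a median of 0.74 (7 of 7 positive, 5 at that p), with sums of 299.6 to 379 CPM in KO PBS and 248 to 287 CPM in HET PBS. Erythrocyte transcripts, 3 loci, had a median of -1.28 (3 of 3 negative, all 3 at that p) and summed to 58.5 to 123 CPM in KO PBS and 162 to 251 CPM in HET PBS. The 7 clock genes of the day phase, whose levels follow the hour of the day, had a median of -0.74 (7 of 7 negative, 5 at that p), with sums of 785 to 992 CPM in KO PBS and 966 to 1627 CPM in HET PBS. The 5 clock genes of the night phase had a median of 0.72 (4 of 5 positive, 0 at that p). The 5 brown fat markers had a median of 1.89 (4 of 5 positive, 0 at that p). Their sums were 43.3 to 77.9 CPM in KO PBS and 50.2 to 64.2 CPM in HET PBS. All of these loci passed the filter on low counts. The part of any of these lists, or of the proximal tubule markers, in the complex I estimates was not tested.

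**Figure D2:**
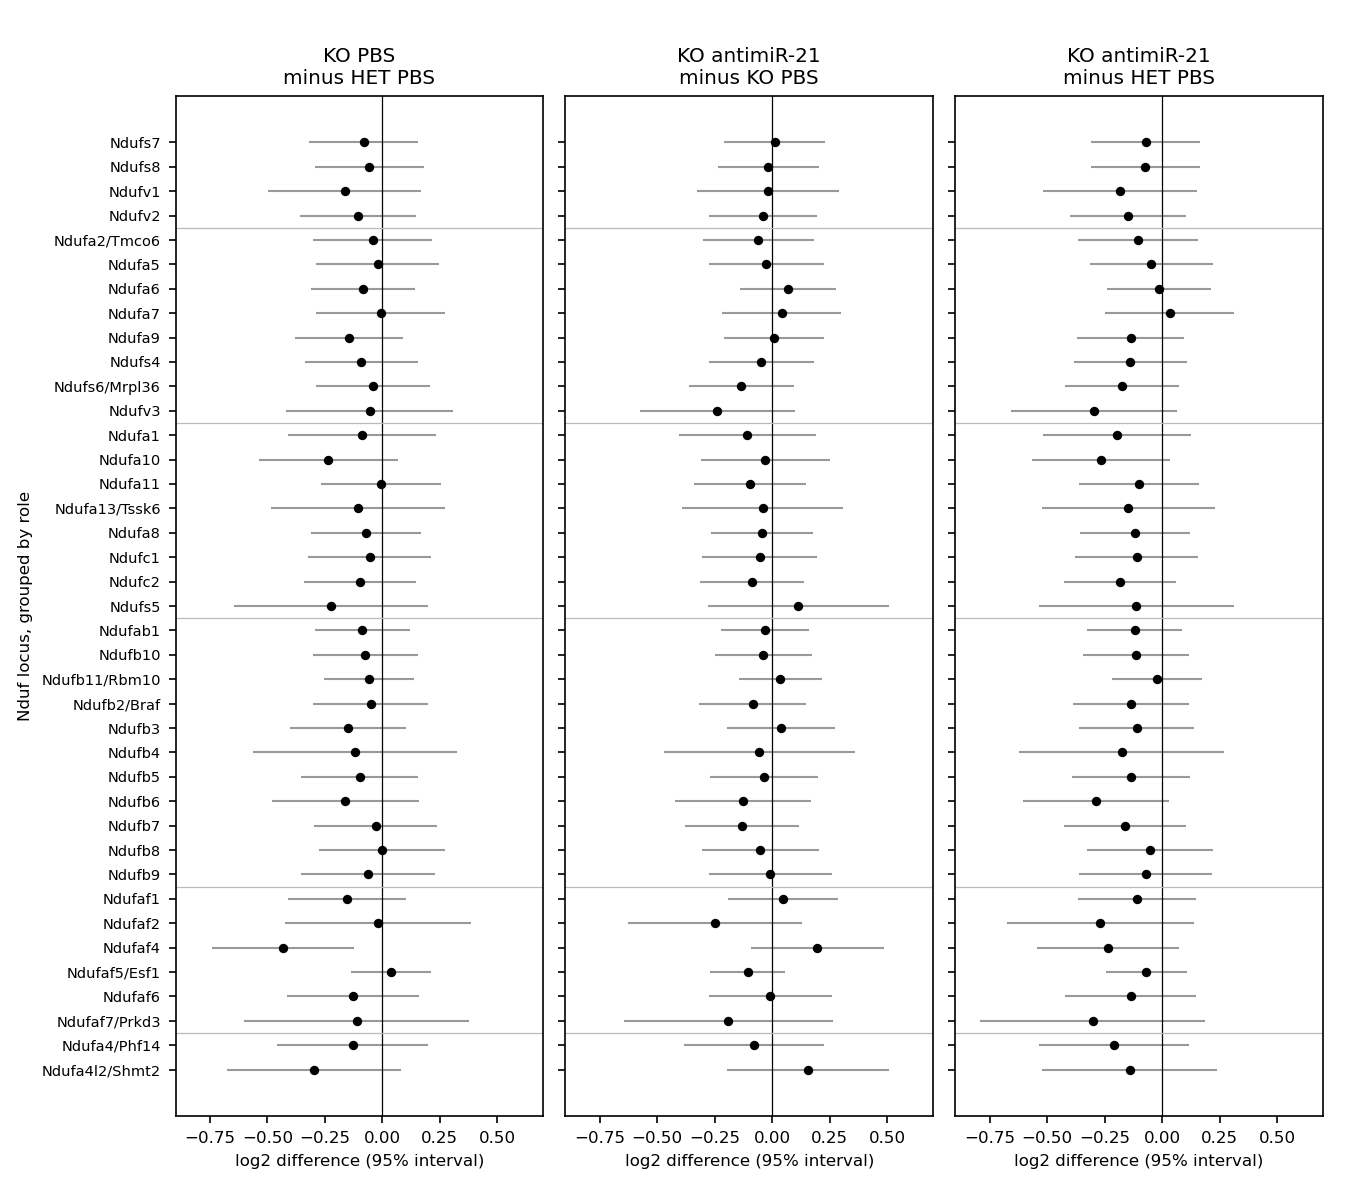
Log2 difference of 39 of the 40 members (points) with its 95% interval (lines) in the 3 comparisons, from the edgeR fit over all 14380 loci, with members grouped by role. Nearly all points of both comparisons against HET PBS lie left of 0, and the interval of Ndufaf4 in KO PBS minus HET PBS is the only one that does not reach 0.

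AntimiR-21 treatment of Col4a3-/- mice left no member past the threshold either: 0 of 40 were called in KO antimiR-21 against KO PBS, as with all loci (0.0%), and the smallest edgeR adjusted p was 0.757. DESeq2 and limma-voom called 0 members. At an unadjusted p under 0.05 none of the members passed with any of these tools, against 8.21% of all loci in edgeR, and none had groups that did not overlap, against 4.28%. That count of 0 rested on 1 library: without KO antimiR-21 replicate 4, 8 of 40 members were lower at an unadjusted p under 0.05 in edgeR, where 1224 of 14438 loci were, and 38 of 40 differences were negative. Without that library, KO antimiR-21 holds no library with Y-linked reads, while KO PBS holds both kinds. The log2 differences were small and mixed, 10 positive and 30 negative, with a median of -0.04 against 0.00379 over all loci. Their 95% intervals had a median half-width of 0.25. The median turned positive without KO PBS replicate 2 (0.03) or KO antimiR-21 replicate 3 (0.02), and it was -0.02 without KO antimiR-21 replicate 1, -0.14 without KO antimiR-21 replicate 4 and -0.09 without KO PBS replicate 1.

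Of the 4 estimates with the smallest p, 3 were of assembly factors (Ndufaf4, Ndufaf2 and Ndufaf5/Esf1) and the smallest was of Ndufv3. Ndufv3 (chr17:31520115-31531331, plus strand), a small accessory subunit near the NADH-binding site, stood at 83.1, 84.5, 88.9 and 122 CPM in KO antimiR-21 and at 91.4, 113, 128 and 114 CPM in KO PBS. The groups overlapped because KO antimiR-21 replicate 4 lay above 3 of the 4 KO PBS libraries; the log2 difference was -0.24 (SE 0.15, edgeR adjusted p = 0.757). Ndufaf2, an assembly factor related to the subunit Ndufa12, stood at 12.9, 12.3, 12.4 and 18.8 CPM in KO antimiR-21 and at 13.2, 20.8, 16.3 and 16.7 CPM in KO PBS. Replicate 4 again lay apart from the other KO antimiR-21 libraries, and the log2 difference was -0.25 (SE 0.17, edgeR adjusted p = 0.774). Ndufaf5/Esf1 had a log2 difference of -0.11 (SE 0.07).

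Ndufaf4 had the positive difference with the smallest p. Its values in KO antimiR-21 were 55.6, 55.7, 45.7 and 66.4 CPM, between those of KO PBS and HET PBS on average at 55.9 ± 8.42 CPM (SD, n = 4). They overlapped both other groups, and the log2 difference from KO PBS was 0.20 (SE 0.13, edgeR adjusted p = 0.769). The other positive estimates of smallest p were 0.16 (SE 0.16) for Ndufa4l2/Shmt2 and 0.07 (SE 0.10) for Ndufa6, an accessory subunit of the matrix arm of the LYR family. With Y-linked status as a term, Ndufaf4 had a log2 difference of 0.27 (edgeR adjusted p = 0.293) and Ndufa4l2/Shmt2 one of 0.28 (edgeR adjusted p = 0.222). These were the lowest adjusted p over the alternatives of each, and the highest of each was 0.9999, without KO antimiR-21 replicate 1. Core subunits lay close to 0, with log2 differences of 0.01 for Ndufs7, -0.02 for Ndufs8, -0.02 for Ndufv1 and -0.04 for Ndufv2, each with an SE of 0.10 to 0.14.

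Within Y-linked status the signs were opposed here too. With Y-linked reads, in 1 library of KO antimiR-21 and 2 of KO PBS, the members' median log2 difference was 0.25 and 38 of 40 were positive, and without them, in 3 libraries of KO antimiR-21 and 2 of KO PBS, it was -0.16 and 37 of 40 were negative. The value with Y-linked reads rests on KO antimiR-21 replicate 4 alone. With Y-linked status as a term the median was -0.02, with 17 positive and 23 negative differences. Over all libraries the proximal tubule markers had 9 positive and 7 negative log2 differences in KO antimiR-21 against KO PBS, with a median of 0.17, and 0 were called. The clock genes had a median of 0.85 for the 7 of the day phase (7 of 7 positive, 5 at an unadjusted p under 0.05) and -1.06 for the 5 of the night phase (4 of 5 negative, 3 at that p). The tubular injury markers had a median of -0.53 (6 of 7 negative, 0 at that p). The brown fat markers had a median of 1.47 (5 of 5 positive, 0 at that p). In these lists 0 loci were called, and their part in the complex I estimates was not tested.

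The microRNA that the treatment inhibits recognises transcripts mainly through its seed, bases 2 to 8, shown in capitals in the mature sequence from RefSeq (GRCm38.p6, chr11:86584120-86584141, minus strand). It is shown because the members that hold a match to it can be set beside their response to the inhibitor.
mmu-miR-21a-5p: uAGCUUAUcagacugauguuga
The 7-base reverse complement of that seed, ATAAGCT, was searched for on the transcript strand in the longest annotated 3' UTR of each gene (GENCODE vM21, GRCm38). It occurred in 2 of 40 members (5.0%), against 7.19% of 21004 protein-coding genes. The members' 3' UTRs were short, with a median of 197 bases against 961 bases. The sites are given with 8 bases on either side, the match in capitals.
Ndufaf4 site, chr4:24904830-24904852, plus strand: tgtctgatATAAGCTtgagataa
Ndufv2 site 1, chr17:66079424-66079446, minus strand: ttccctacATAAGCTttattcgg
Ndufv2 site 2, chr17:66079153-66079175, minus strand: aattttttATAAGCTttatgtca
Ndufaf4 holds 1 site, near the end of a 3' UTR of 3026 bases, and its log2 difference of 0.20 in KO antimiR-21 against KO PBS had a 95% interval of -0.09 to 0.48. Ndufv2 holds 2 sites, and stood at 212, 206, 203 and 252 CPM in KO antimiR-21 and at 203, 267, 216 and 211 CPM in KO PBS. The ranges overlapped almost entirely, and the log2 difference was -0.04 with a 95% interval of -0.27 to 0.19. A match is a description of the letters and not of binding.

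KO antimiR-21 kidneys compared with HET PBS kidneys gave 39 of 40 negative log2 differences, with a median of -0.14 against -0.00241 over all loci. No member was called by edgeR, DESeq2 or limma-voom; 0.00695% of all loci were called by edgeR. At an unadjusted p under 0.05 none passed with the 3 tools, against 8.05% of all loci in edgeR, and no member's groups failed to overlap, against 5.98%. That count also changed with single libraries: without KO antimiR-21 replicate 4, 14 of 40 members were lower at an unadjusted p under 0.05 in edgeR, where 1604 of 14438 loci were, and without HET PBS replicate 1, 6 were lower, where 1342 of 14696 loci were. The first of these fits has no KO antimiR-21 library with Y-linked reads, while HET PBS holds both kinds. In the second, both HET PBS libraries hold such reads. The comparison of KO antimiR-21 with HET PBS shares its HET PBS libraries with the first comparison and its KO antimiR-21 libraries with the second. Its values are thus not separate support for either. In the marker lists 0 loci were called, and the median log2 difference was 0.79 for macrophage (6 of 7 positive, 5 at an unadjusted p under 0.05), 0.82 for tubular injury (7 of 7 positive, 3 at that p), 0.52 for fibroblast (7 of 7 positive, 3 at that p) and -0.12 for proximal tubule markers (12 of 16 negative, 1 at that p). The brown fat markers had a median of 3.49 (5 of 5 positive, 2 at that p), with sums of 46.3 to 122 CPM in KO antimiR-21 and 50.2 to 64.2 CPM in HET PBS. The part of these lists in the complex I estimates was not tested. The median was -0.22 without KO antimiR-21 replicate 4 and -0.09 without KO antimiR-21 replicate 3 or HET PBS replicate 3.

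Ndufb6 (chr4:40270591-40279421, minus strand), an accessory subunit of the distal membrane arm, had the smallest p. It stood at 105, 100.01, 103 and 141 CPM in KO antimiR-21 and at 115, 140 and 157 CPM in HET PBS. All but replicate 4 of KO antimiR-21 lay below every HET PBS library, and the log2 difference was -0.29 (SE 0.15, edgeR adjusted p = 0.614). Ndufa10 stood at 240, 248, 228 and 314 CPM in KO antimiR-21, with a log2 difference of -0.27 (SE 0.14, edgeR adjusted p = 0.614) from HET PBS, close to the -0.23 that KO PBS gave against HET PBS. For Ndufv3 the log2 difference was -0.29 (SE 0.17, edgeR adjusted p = 0.615). The core subunits ran from -0.18 for Ndufv1 to -0.07 for Ndufs8 and Ndufs7, with -0.15 for Ndufv2. The 1 positive estimate was that of Ndufa7, a matrix-arm accessory subunit, at 0.03 (SE 0.13). Within Y-linked status the median of the members was 0.04 with Y-linked reads (1 library against 2, 27 of 40 positive) and -0.08 without (3 libraries against 1, 33 of 40 negative). With that status as a term the median was -0.07, and 37 of 40 were negative.

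**Figure D3:**
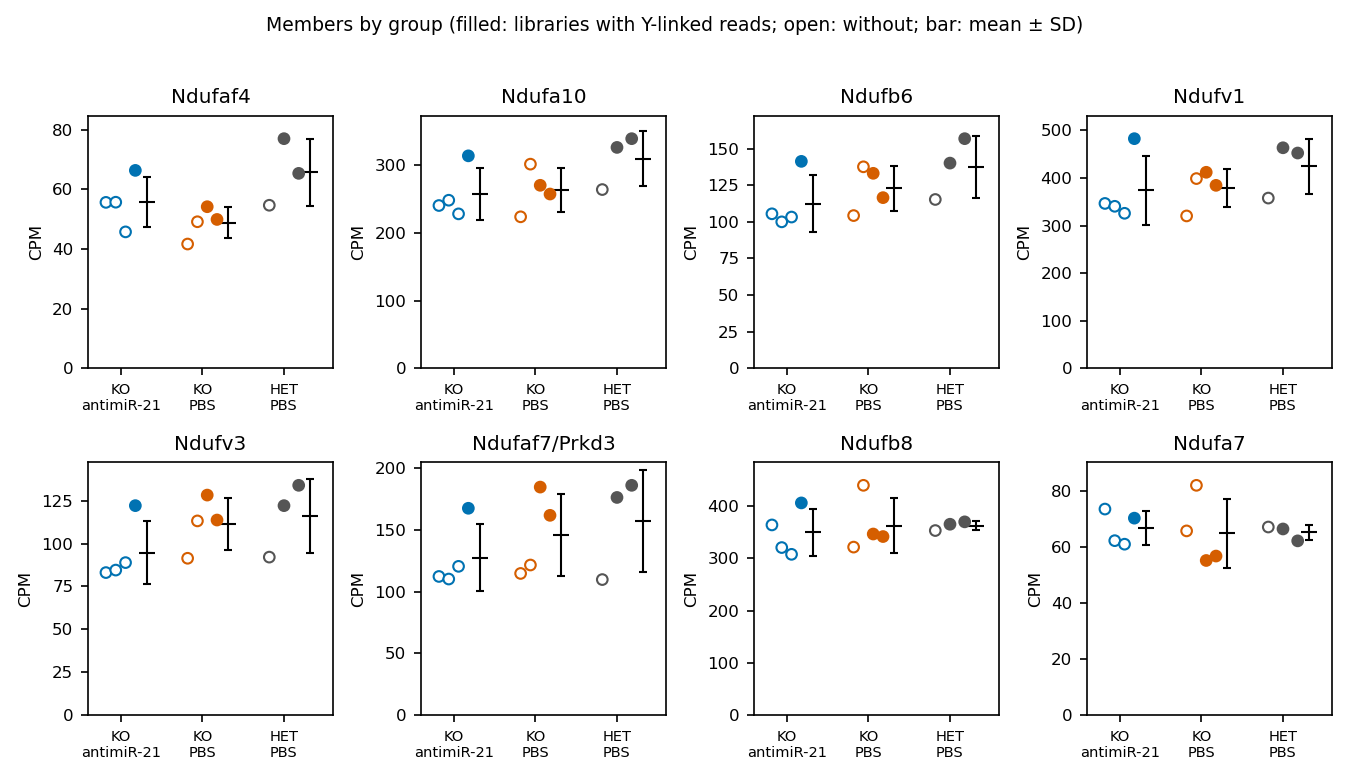
CPM of 8 members in each library by group, with filled points for libraries with Y-linked reads, open points for those without, and a bar for the mean ± SD (n = 4, 4 and 3). The groups overlap for the members shown except Ndufaf4 in KO PBS and HET PBS, and the filled and open points separate for Ndufv3 and Ndufaf7/Prkd3.

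Libraries with Y-linked reads differed from those without in 8 of 40 members, all higher, where 11.1% of all loci were called higher and 6.85% lower (edgeR with group as a term, adjusted p under 0.05). The log2 difference was positive in 39 of 40 members, with a median of 0.12 against -0.02 over all loci. DESeq2 and limma-voom each called 8 members, where over all loci they called 1794 and 1565 higher. The count depended on single libraries: it was 3 without KO antimiR-21 replicate 4 or without HET PBS replicate 1, 4 without HET PBS replicate 2 or KO PBS replicate 1, 5 without KO PBS replicate 3, 13 without KO PBS replicate 4 and 24 without KO PBS replicate 2. Among all loci, those called higher numbered 982 of 14438 without KO antimiR-21 replicate 4 and 856 of 14696 without HET PBS replicate 1. They numbered 1378 of 14739 without HET PBS replicate 2 and 1232 of 14360 without KO PBS replicate 1. Without KO PBS replicates 3, 4 and 2 in turn they numbered 1092 of 14290, 1841 of 14284 and 2217 of 14439. The members' median and signs depended on single libraries too. Without KO antimiR-21 replicate 4 the median was 0.03, with 24 positive and 16 negative differences, and without KO PBS replicate 2 it was 0.21, with 39 of 40 positive.

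Among the members counted alone, Ndufv3 stood at 114 to 134 CPM in the 5 libraries with Y-linked reads, with a median of 122 CPM, and at 83.1, 90.2 and 113 CPM (lowest, median, highest) in the 6 without. The ranges met but did not overlap, and the log2 difference was 0.39 (SE 0.08, edgeR adjusted p = 0.0038). Ndufv1 averaged 439 ± 39.9 CPM with (SD, n = 5) and 348 ± 28.3 CPM without (SD, n = 6), a log2 difference of 0.32 (SE 0.08, edgeR adjusted p = 0.0167). Ndufv2, its partner in the NADH-binding part, had a log2 difference of 0.07 (SE 0.09, edgeR adjusted p = 0.615). Whether Ndufv1 and Ndufv2 differ from each other was not tested.

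Assembly factors made up 3 of the 8 called loci. Ndufaf4 averaged 62.6 ± 10.73 CPM with Y-linked reads (SD, n = 5) and 50.4 ± 5.88 CPM without (SD, n = 6), a log2 difference of 0.29 (SE 0.08, edgeR adjusted p = 0.0275). Ndufaf6, needed early in complex I assembly, had a log2 difference of 0.27 (SE 0.08, edgeR adjusted p = 0.029). Ndufaf7 is a mitochondrial arginine methyltransferase needed for complex I assembly, and its joint locus with Prkd3 stood at 162 to 186 CPM with Y-linked reads and at 110 to 122 CPM without, with no overlap. That log2 difference of 0.60 (SE 0.06, edgeR adjusted p = 3.82e-05) had the smallest p among the members. The share of all loci without overlap by Y-linked reads was not computed. Whether the lack of overlap sets this locus and Ndufv3 apart from other loci is thus not known. The other called loci were Ndufa4l2/Shmt2 at 0.43 (SE 0.07), Ndufb2/Braf at 0.23 (SE 0.06) and Ndufb4 at 0.42 (SE 0.12) on the log2 scale. Ndufa7 was the 1 member with a negative estimate, -0.15 (SE 0.10, edgeR adjusted p = 0.305), at 55.2 to 70.4 CPM with Y-linked reads and 61.1 to 82.1 CPM without.

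The members varied together from library to library. The first principal component of their log2 CPM, with differences between groups kept in, held 75.4% of the variance, against 47.04% for all loci. After the group means were removed, the correlation of a member with the mean of the other members over the 11 libraries had a median of 0.90. It ran from 0.37 for Ndufa7 to 0.98 for Ndufa10, and 21 of 40 members were above 0.9. The 4 members below 0.7 were Ndufa7 and the joint loci Ndufaf5/Esf1, Ndufaf7/Prkd3 and Ndufa4l2/Shmt2. These correlations describe libraries that share a depth scaling and a tissue mix, so 39 negative signs are not 39 independent observations.

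Summed over the members, the level was 5886, 5733, 5441 and 7251 CPM in KO antimiR-21 replicates 1 to 4, 5514, 7009, 6359 and 5969 CPM in KO PBS, and 5979, 6996 and 7132 CPM in HET PBS. KO PBS replicate 2 was the highest of the 11 libraries for 19 of 40 members, HET PBS replicate 3 for 9, KO antimiR-21 replicate 4 for 9 and HET PBS replicate 2 for 3. KO antimiR-21 replicate 3 was the lowest for 20 members and KO PBS replicate 1 for 9. Each group thus held at least 1 library above and 1 below the mean over all libraries. As a mean over members of log2 CPM minus the locus mean, KO antimiR-21 replicate 4 lay at 0.21 and the other KO antimiR-21 libraries at -0.20 to -0.10.

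**Figure D4:**
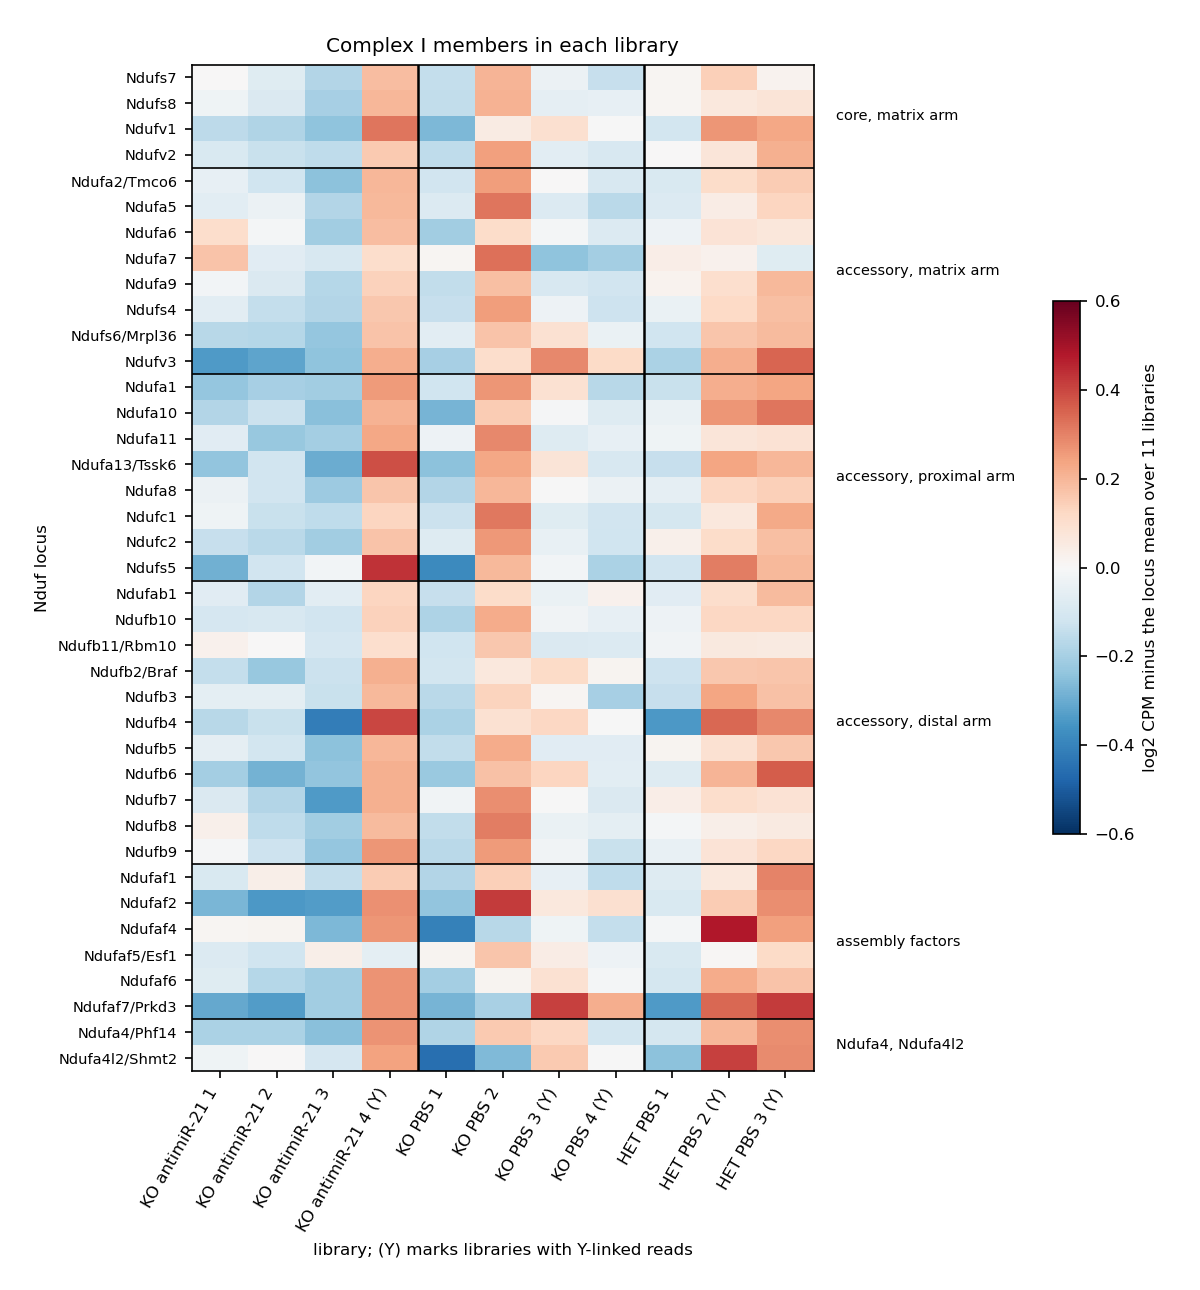
Log2 CPM of 39 of the 40 members (rows, grouped by role) minus the locus mean over 11 libraries (columns, by group), with (Y) marking libraries with Y-linked reads. Columns such as KO antimiR-21 replicate 4 and KO PBS replicate 2 are high across nearly all roles, and Ndufa7 and Ndufaf5/Esf1 depart from the shared pattern.

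Other mitochondrial gene lists showed like values per library. On the same scale, the 43 mitochondrial ribosomal protein loci lay at 0.18 in KO antimiR-21 replicate 4, 0.14 in KO PBS replicate 2 and -0.11 in KO PBS replicate 1, where the complex I members lay at 0.21, 0.17 and -0.17. The 32 subunits of complexes III, IV and V lay at 0.16, 0.23 and -0.11 in those libraries. A list outside mitochondria, the 75 cytosolic ribosomal protein loci, lay at 0.15, 0.16 and 0.05 in the same libraries. In KO antimiR-21 replicate 3 it lay at -0.13, where the members lay at -0.195. In HET PBS replicates 2 and 3 it lay at -0.06 and -0.03, where the members lay at 0.16 and 0.18. Proximal tubule markers lay at 0.35 in KO antimiR-21 replicate 4 and -0.51 in KO PBS replicate 1, but at -0.26 in KO PBS replicate 2, where the complex I members were high. They also lay at 0.33 in KO PBS replicate 3 and 0.18 in KO PBS replicate 4, where the members lay at 0.02 and -0.07, and at 0.57 in HET PBS replicate 2, where the members lay at 0.16. Several of these transporters are known to differ between male and female mouse kidneys. The mean over the markers was 0.18 to 0.57 in the libraries with Y-linked reads and -0.51 to -0.17 in those without, but the list did not move as one: 8 of 16 log2 differences by Y-linked reads were positive and 8 negative, with a median of 0.04, and 5 were called higher and 1 lower. The organic anion transporter gene Slc22a8, for example, stood at 457 to 719 CPM with Y-linked reads and at 756 to 1020 CPM without. Thick ascending limb and distal convoluted tubule markers lay at 0.17 and 0.30 in KO PBS replicate 2. They lay at -0.12 and -0.25 in KO antimiR-21 replicate 4, and at 0.08 and 0.05 in KO PBS replicate 1. Brown fat, which is rich in mitochondria and lies beside the kidney, was marked by Ucp1 at 17.1 CPM in KO antimiR-21 replicate 1 and 4.5 CPM in KO PBS replicate 4, both libraries with complex I members below their mean, at -0.10 and -0.07. Its 5 markers summed to 46.3 to 122 CPM in KO antimiR-21, 43.3 to 77.9 CPM in KO PBS and 50.2 to 64.2 CPM in HET PBS. The part of these cell types in the complex I values was not tested.

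**Figure D5:**
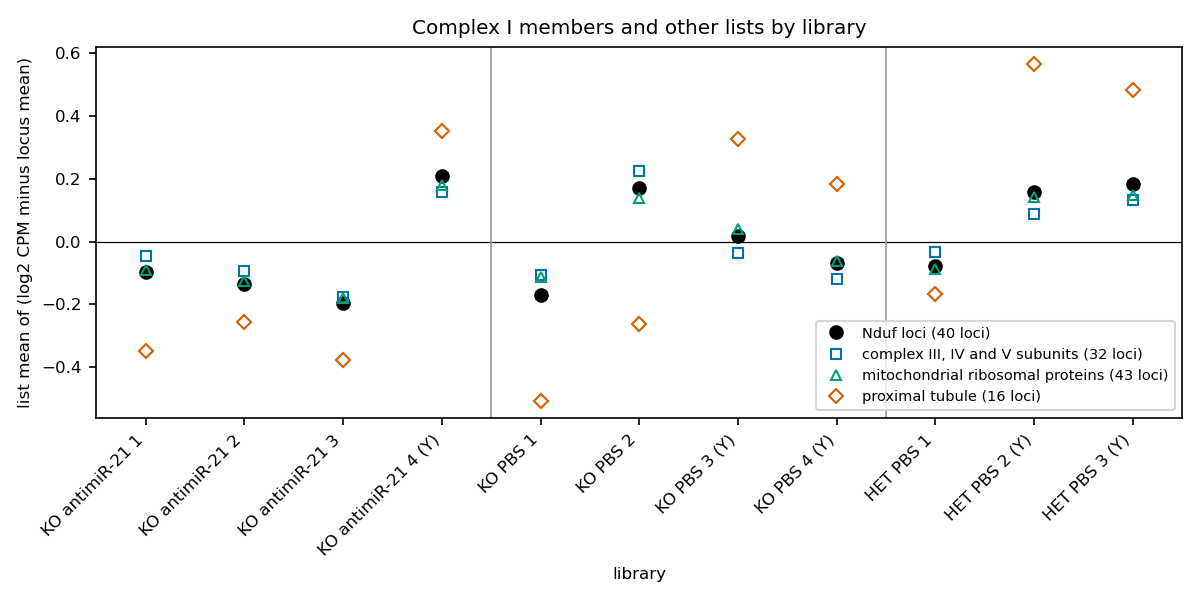
Mean over each list of log2 CPM minus the locus mean, per library and group, for the 40 complex I members, 32 subunits of complexes III to V, 43 mitochondrial ribosomal proteins and 16 proximal tubule markers. The mitochondrial lists lie close together in every library, while the proximal tubule markers part from them in several, below 0 in KO PBS replicate 2 where the members are above it and the reverse in KO PBS replicate 4.

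Genes that work with complex I under other names were read in the same comparisons. Of those listed, 9 of 12 assembly factors, 10 of 13 regulators and 7 of 8 complex II genes had a row. Of 9 further assembly factors, 0 were called in any of the 3 comparisons, and 2 were called higher with Y-linked reads: Acad9, which forms an assembly complex with Ndufaf1, at 0.54 (SE 0.09) and Aifm1, the flavoprotein needed for respiratory chain biogenesis, at 0.23 (SE 0.07) on the log2 scale. Between the groups, Atp5sl (Dmac2), a distal-arm assembly factor, had the smallest p of this list in KO PBS against HET PBS, at 81.8 ± 2.66 CPM and 98.2 ± 9.59 CPM (SD, n = 4 and 3), a log2 difference of -0.26 (SE 0.10, edgeR adjusted p = 0.621). In KO antimiR-21 it averaged 97.6 ± 11.6 CPM (SD, n = 4), a log2 difference of 0.26 (SE 0.09, edgeR adjusted p = 0.490) from KO PBS, and 3110001D03Rik followed at -0.15 (SE 0.15). Aifm1 followed in KO PBS against HET PBS at -0.21 (SE 0.12). In KO antimiR-21 against HET PBS, Aifm1 at -0.23 (SE 0.12) and Acad9 at -0.38 (SE 0.22) had the smallest p.

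Of 10 regulators of respiratory genes, 0 were called in any of the 3 comparisons or by Y-linked status, where Esrrb at -0.30 (SE 0.11) and Ppargc1a at -0.18 (SE 0.08) had the smallest p. Esrrb, an orphan nuclear receptor that activates oxidative genes, had the smallest p in KO antimiR-21 against KO PBS, at a log2 difference of 0.44 (SE 0.15, edgeR adjusted p = 0.470), and the coactivator Pprc1 followed at -0.32 (SE 0.14). Against HET PBS, KO PBS had Pprc1 at 0.32 (SE 0.15) and Yy1, a zinc-finger factor that binds respiratory gene promoters, at -0.12 (SE 0.06). Hcn2/Polrmt at -0.25 (SE 0.09) and Esrrg at -0.23 (SE 0.10) had the smallest p in KO antimiR-21 against HET PBS. Of 7 genes of complex II, which feeds electrons to the same ubiquinone pool, 0 were called between the groups and 1, the assembly factor Sdhaf1, was higher with Y-linked reads at 0.57 (SE 0.08), followed by Sdhc at 0.15 (SE 0.09). Sdhb, its iron-sulphur subunit, differed by -0.14 (SE 0.11) in KO PBS against HET PBS and by 0.11 (SE 0.11) in KO antimiR-21 against KO PBS. The others of smallest p were 1110058L19Rik (Sdhaf4) at -0.25 (SE 0.13) in KO PBS against HET PBS and -0.19 (SE 0.13) in KO antimiR-21 against HET PBS, Sdhc at -0.18 (SE 0.12) also in KO antimiR-21 against HET PBS, and Acn9 at 0.10 (SE 0.13) in KO antimiR-21 against KO PBS.

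Because the members varied together, their promoters were read for 4 motifs of factors known to act on respiratory genes. RefSeq promoters (GRCm38.p6, 250 bases before to 50 after the annotated start) were at hand for 35 of 40 members, with Ndufa2, Ndufa4l2, Ndufaf6 and Ndufb9 among those without. Each motif was searched on both strands, and the same search was run over 17492 promoters of protein-coding genes. The NRF1 core CGCATGCG, a palindrome, occurred in 4 members (11.4%, against 2.54% of all promoters): Ndufa8, Ndufa11, Ndufaf4 and Ndufaf5. The YY1 motif AAGATGGC occurred in 6 members (17.1%, against 3.22%): Ndufa9, Ndufb8, Ndufc1, Ndufs4, Ndufs6 and Ndufs7. In all 6 it began 23 to 39 bases after the start. This motif holds the letters ATG, and whether the matches lie at start codons of translation was not tested. The ERR motif AAGGTCA occurred in 3 members (8.57%, against 4.08%) and the ETS motif CCGGAAG in 4 (11.4%, against 11.9%). No member's promoter held more than 1 of the 4 motifs, so none overlapped. The members' promoters held a median of 20 CpG dinucleotides, against 13. Shown are 2 promoters with the NRF1 core and 2 with the YY1 motif, in capitals, from members named in the results above.
Ndufaf4, chr4:24897833-24898132, plus strand: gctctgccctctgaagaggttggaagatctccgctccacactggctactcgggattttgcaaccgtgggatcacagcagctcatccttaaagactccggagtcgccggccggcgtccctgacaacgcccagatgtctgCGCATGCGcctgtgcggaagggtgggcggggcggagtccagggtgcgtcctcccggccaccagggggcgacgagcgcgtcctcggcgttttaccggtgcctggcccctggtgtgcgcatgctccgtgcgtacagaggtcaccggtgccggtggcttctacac
Ndufa8, chr2:36049289-36049588, minus strand: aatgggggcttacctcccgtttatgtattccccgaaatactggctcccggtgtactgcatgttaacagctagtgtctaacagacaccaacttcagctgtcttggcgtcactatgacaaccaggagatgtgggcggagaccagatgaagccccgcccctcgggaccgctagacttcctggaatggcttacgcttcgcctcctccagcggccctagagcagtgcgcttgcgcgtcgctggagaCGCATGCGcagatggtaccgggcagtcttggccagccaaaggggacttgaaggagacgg
Ndufs7, chr10:80249199-80249498, plus strand: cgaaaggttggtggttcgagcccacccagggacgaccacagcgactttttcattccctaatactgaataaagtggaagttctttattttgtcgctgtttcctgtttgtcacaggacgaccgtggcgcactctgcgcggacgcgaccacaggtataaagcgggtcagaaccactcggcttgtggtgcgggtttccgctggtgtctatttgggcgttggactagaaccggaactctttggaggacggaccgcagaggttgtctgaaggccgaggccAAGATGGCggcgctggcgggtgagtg
Ndufb8, chr19:44555393-44555692, minus strand: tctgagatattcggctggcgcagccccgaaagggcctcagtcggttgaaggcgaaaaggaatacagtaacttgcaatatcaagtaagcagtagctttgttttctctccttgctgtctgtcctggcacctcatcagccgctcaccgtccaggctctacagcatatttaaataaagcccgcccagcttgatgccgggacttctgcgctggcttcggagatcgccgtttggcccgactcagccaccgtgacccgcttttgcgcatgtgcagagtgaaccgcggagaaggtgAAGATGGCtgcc
Ndufa8, an accessory subunit of the proximal arm, followed the other members closely (correlation 0.97), Ndufs7 and Ndufb8 less so (0.86 and 0.85), and Ndufaf4 still less (0.77). Nothing about binding of these factors follows from a match or from its absence.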

How the data were processed

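The authors deposited a table of estimated counts per gene for each of 11 kidney libraries, in steps of 0.5 and not normalized, per the values. They also deposited a log2 matrix of the series, used as an alternative. Per the labels' protocols, 150 ng of total RNA went into TruSeq v2 libraries, a kit that does not mark strand. HTSeq 0.5.4p5, STAR, limma, SAMtools, FastQC and mm10 are listed in the submitters' processing notes, with neither roles nor settings given in the sources used here.

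Names with identical counts in all libraries and a total of at least 50 were joined, 1513 loci in all. Counts were rounded to whole numbers, loci kept by filterByExpr (14380, of which 1502 joint) and scaled by TMM. A quasi-likelihood model (edgeR 4.0.16, R 4.3.3) with 3 groups was fitted to all libraries and loci, with two-sided tests and a Benjamini-Hochberg adjusted threshold of 0.05. The same fit with Y-linked status (Ddx3y above 5 CPM) as a term gave the contrast by Y-linked reads. DESeq2 1.42.0 and limma-voom (limma 3.58.1) were alternatives. The fit was checked on simulated data. CPM here uses the TMM-scaled library size, from 17.9 to 39.7 M counts after joining, with scaling factors of 0.917 to 1.08, and the biological coefficient of variation was 0.215.

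The members and lists were chosen with earlier results of these data known. Named members are those with an adjusted p under 0.05, the 3 positive and 3 negative of smallest p in each comparison, the core matrix-arm subunits, the 3 highest and 3 lowest per length, and Ndufa4 and Ndufa4l2. Of the other pathway lists the 2 genes of smallest p per comparison are named. The values of 1 member that the rule names are not reported here; it stays in the counts and medians.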

Additional observations from a re-analysis of the deposited data

Results flagged for a closer look

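In 15 of the 80 groups of 4 libraries examined (40 members in each knockout group), 1 library lay farther from the others than the group's spread allows, by the gap to its nearest neighbour divided by the range. Chance alone marks about 1 in 20 groups, and the members' values are not independent of each other, so these are not 15 separate events.

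KO antimiR-21 replicate 4 was the high library for 10 members. Its values were 87.0 CPM for Ndufa1, 634 CPM for Ndufa4/Phf14, 18.8 CPM for Ndufaf2, 165 CPM for Ndufb10, 141 CPM for Ndufb6, 99.9 CPM for Ndufc2, 128 CPM for Ndufs6/Mrpl36, 483 CPM for Ndufv1, 252 CPM for Ndufv2 and 122 CPM for Ndufv3. Taking Ndufa1, the other 3 libraries of the group lay between 62.1 and 63.5 CPM. This library is the 1 KO antimiR-21 library with Y-linked reads.

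KO PBS replicate 2 was the high library for 5 members, at 99.4 CPM for Ndufa11, 122 CPM for Ndufa5, 350 CPM for Ndufa9, 268 CPM for Ndufb11/Rbm10 and 92.9 CPM for Ndufc1. For Ndufa9 the other 3 libraries of the group lay between 278 and 289 CPM. It holds almost no Y-linked reads (Ddx3y at 0.0501 CPM).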

How the results depend on the processing

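Counts of called members stayed at 0 in the 3 group comparisons under every alternative run, those without 1 replicate included. The count by Y-linked reads stayed at 8 with DESeq2 size factors, DESeq2, limma-voom, no filter on low counts and rows as deposited. It ran from 3 to 24 when 1 replicate was left out, where loci called higher ran from 856 of 14696 to 2217 of 14439. The median log2 difference of the members ran from -0.12 to -0.06 in KO PBS against HET PBS, from -0.05 to -0.02 in KO antimiR-21 against KO PBS and from -0.17 to -0.07 in KO antimiR-21 against HET PBS under the alternatives that kept all replicates. Without 1 replicate it ran from -0.15 to -0.03, from -0.14 to 0.03, where it changed sign, and from -0.22 to -0.09, and by Y-linked reads from 0.03 to 0.21. All of these medians are of the order of the spread between libraries of a group (SD 0.16). Members lower at an unadjusted p under 0.05 in edgeR numbered 0 to 4, 0 to 8 and 0 to 14 without 1 replicate in the 3 group comparisons, the highest without HET PBS replicate 1 in the first and without KO antimiR-21 replicate 4 in the others.

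Of 34 log2 differences followed for single members, 7 changed sign under at least 1 alternative, all of them within 0.07 of 0 and none called. With Y-linked status as a term, KO antimiR-21 against KO PBS gave 0.045 for Ndufv1, and KO antimiR-21 against HET PBS gave -0.027 for Ndufa7. With only the groups compared, Ndufs7 gave -0.00182 in KO antimiR-21 against KO PBS. Without 1 replicate, the estimates in KO antimiR-21 against KO PBS ran from -0.00497 to 0.14 for Ndufa6, -0.075 to 0.083 for Ndufs7, -0.11 to 0.050 for Ndufs8, -0.18 to 0.041 for Ndufv1 and -0.13 to 0.043 for Ndufv2. In KO antimiR-21 against HET PBS Ndufa7 ran from -0.016 to 0.074, and in KO PBS against HET PBS Ndufaf5/Esf1 ran from -0.011 to 0.10. The cause was not tested.

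Whether replicate numbers pair libraries across groups is not known. Same-numbered libraries correlated at -0.444 to 0.629 and differently numbered ones at -0.718 to 0.625, ranges too alike to decide it. With the replicate block, 0 members were called in each comparison, and the medians were -0.12, -0.04 and -0.17. At an unadjusted p under 0.05 in edgeR, 3, 1 and 4 of 40 members were lower. Over all 14380 loci, 614, 719 and 1155 were lower at that p.

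With 3 or 4 libraries a group, the 95% interval of a member spans about 0.27 on either side on the log2 scale before any adjustment for the number of loci. Joint loci and near copies limit what can be assigned to a gene.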
